A study of Mus musculus with 28 samples.

Results

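The mitochondrial respiratory chain and the ATP synthase are built mostly from proteins whose genes lie in the nucleus, and their liver transcripts were followed here as 1 module. Members were all gene symbols of the count table that name a subunit of NADH dehydrogenase (Nduf followed by a, b, c, s or v and a number), succinate dehydrogenase (Sdha to Sdhd), the cytochrome bc1 complex (Uqcr symbols and Cyc1), cytochrome c oxidase (Cox4 to Cox8 symbols) or ATP synthase (Atp5 symbols). The 13 rows named as pseudogenes by a -ps ending were left out. This gave 85 members among 36072 symbols, 36 in complex I, 4 in complex II, 9 in complex III, 19 in complex IV and 17 in complex V. The rule used names only and no measured value. An average of at least 10 counts per mouse was reached by 80 members, that is by every member of complexes I, II, III and V and by 14 of the 19 of complex IV. The 5 below it were Cox4i2, Cox6b2, Cox7b2, Cox8c and Cox6c2, the last of which the annotation lists as a processed pseudogene.

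Complexes I and II pass electrons from NADH and succinate to ubiquinone, complex III passes them on to cytochrome c, and complex IV hands them to oxygen. Complexes I, III and IV pump protons across the inner mitochondrial membrane, and complex V lets them flow back through a rotor to make ATP. Complex II is wholly encoded in the nucleus, while the other complexes combine nuclear subunits with a few made inside the mitochondrion from mt- genes. Hepatocytes are rich in mitochondria and oxidise fatty acids through this chain. Symbols follow the count table: Ndufa4 is placed with complex I by its name although the protein is now regarded as a subunit of complex IV, and Cox7a2l encodes a factor that joins complexes III and IV into supercomplexes.

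The livers came from 14 female mice on a C57BL/6 background, 7 Mif-2-/- Apoe-/- mice and 7 Apoe-/- mice. All of them lacked Apoe, the apolipoprotein through which remnant lipoproteins are cleared, and all ate a cholesterol-rich Western diet for 12 weeks from an age of 8 weeks. Both deletions were present in the whole body from birth, so liver and other organs lacked MIF-2 alike. MIF-2 is a cytokine encoded by Ddt. Each mouse had 2 libraries, which matched each other best in 28 of 28 libraries and were summed per mouse, so that n counts mice. Totals per mouse were 1336787 to 2715022 counts, of which the 85 members held 8871 to 48210 counts or 0.664 to 1.93%. Ddt had 5 to 12 counts in Mif-2-/- Apoe-/- mice, against 84 to 316 counts in Apoe-/- mice (log2 fold change -4.50 ± 0.23 SE, edgeR quasi-likelihood test, adjusted p = 3.12e-11). The groups did not overlap for Ddt, and each mouse matched its label.

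Livers of both groups carried hepatocyte transcripts at 30551 to 48038 CPM in Mif-2-/- Apoe-/- mice and at 26124 to 41031 CPM in Apoe-/- mice, summed over 7 markers (CPM, counts scaled to a common library size by TMM). A few mice stood apart in ways that touch the members. Mouse 3 of the Mif-2-/- Apoe-/- group had 13122 counts of 9 skeletal muscle markers, against 44 to 84 in the other 6 mice of its group and 39 to 86 in Apoe-/- mice, and it also had the highest share of counts on the members. Mouse 2 of the Mif-2-/- Apoe-/- group and mice 7 and 3 of the Apoe-/- group had the highest shares of ribosomal RNA, at 51.8, 47.4 and 41.6% of counts, and the lowest shares on the members, at 0.664, 0.914 and 0.949%. Results are therefore also given without mouse 3 or mouse 2 of the Mif-2-/- Apoe-/- group where it matters. In whole liver, fewer cells of a type and less RNA per cell cannot be told apart.

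Promoters of respiratory chain genes are known for binding sites of NRF1, of ETS-family factors such as GABP and of YY1. The 150 bases before the start given in the RefSeq promoter table (GRCm38.p6) are shown for 6 members. These are the 4 with the smallest p values below and the 2 of complex IV with fold changes under 0. The stretches run 5′ to 3′ along the gene's strand, which is the minus strand for each of the 6. Capitals mark an ETS core, CCGGAAG on either strand (here read as its reverse complement). No capitals mark an NRF1 core (GCATGCGC) or a YY1 core (AAGATGGC), which were searched on both strands and had no match in these stretches.
Atp5o: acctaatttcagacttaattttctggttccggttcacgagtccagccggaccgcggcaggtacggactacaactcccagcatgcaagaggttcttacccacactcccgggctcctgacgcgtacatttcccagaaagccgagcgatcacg
Uqcrh: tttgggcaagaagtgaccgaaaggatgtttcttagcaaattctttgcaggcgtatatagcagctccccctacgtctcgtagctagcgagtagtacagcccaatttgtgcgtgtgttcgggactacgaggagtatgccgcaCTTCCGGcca
Atp5g3: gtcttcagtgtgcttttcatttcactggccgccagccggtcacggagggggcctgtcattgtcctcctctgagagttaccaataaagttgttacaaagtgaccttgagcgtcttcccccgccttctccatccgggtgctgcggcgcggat
Atp5e: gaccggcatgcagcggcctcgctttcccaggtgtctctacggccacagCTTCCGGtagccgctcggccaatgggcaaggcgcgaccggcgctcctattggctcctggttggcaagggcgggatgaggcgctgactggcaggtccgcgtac
Cox6b1: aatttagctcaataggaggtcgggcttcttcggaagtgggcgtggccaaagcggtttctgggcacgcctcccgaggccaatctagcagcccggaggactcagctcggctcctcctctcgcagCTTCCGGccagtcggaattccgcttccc
Cox8a: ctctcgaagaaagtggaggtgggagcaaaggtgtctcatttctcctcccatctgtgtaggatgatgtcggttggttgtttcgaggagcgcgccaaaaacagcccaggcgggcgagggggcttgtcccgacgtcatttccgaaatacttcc

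The stretches lie at chr16:91931631-91931780 (Atp5o), chr4:116075071-116075220 (Uqcrh), chr2:73911327-73911476 (Atp5g3), chr2:174464102-174464251 (Atp5e), chr7:30626115-30626264 (Cox6b1) and chr19:7217617-7217766 (Cox8a). For Atp5g3 the start in the RefSeq promoter table is that of a transcript that begins inside the gene, whose RefSeq span ends at position 73912464, and other starts of Atp5g3 were not searched. An ETS core stood 10 bases before the start of Uqcrh, 102 before that of Atp5e and 28 before that of Cox6b1. It thus occurred in members with fold changes above 0 and in Cox6b1, whose fold change was under 0. No member was called in the main comparison below. RefSeq promoter windows from 250 bases before to 50 after the start were found for 68 of the 85 members. The ETS core was in the windows of 17 of the 68 (25.0%), the NRF1 core in 10 (14.7%) and the YY1 core in 10 (14.7%). Cox8a was among the 17, with an ETS core that did not lie wholly within the 150 bases shown above. Among 7344 other tested genes with a window the shares were 20.5, 5.91 and 5.43%, and among all 27025 symbols with a window 9.93, 3.05 and 3.19%. Members with and without a core had like fold changes. The median log2 fold change was 0.25 for the 17 tested members with an ETS core and 0.31 for the 47 without, 0.27 for the 10 with an NRF1 core and 0.30 for the 54 without, and 0.29 for the 10 with a YY1 core and 0.30 for the 54 without. A match is a run of letters and not a measured binding site.

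Most nuclear-encoded subunits had slightly higher counts in Mif-2-/- Apoe-/- than in Apoe-/- livers, and none passed the test. The comparison asks which liver transcripts differ when Mif-2 is missing in addition to Apoe. Of the 85 members, 77 passed the filter on low counts and 0 were called at an adjusted p below 0.05 (edgeR quasi-likelihood test over all genes), where 0.217% of the 9684 genes tested were called. The fold change was above 0 for 74 of the 77, against 51.5% of all genes tested, and the median log2 fold change was 0.28 for the members and 0.01 for all genes. An unadjusted p under 0.05 with a higher level was found for 21 members, against 7.37% of all genes tested, and with a lower level for 0. Members are not independent of each other, so these counts describe 14 mice and not 77 separate observations. For no member were the groups free of overlap with the Mif-2-/- Apoe-/- mice above, which held for 0.103% of genes tested.

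**Figure D1:**
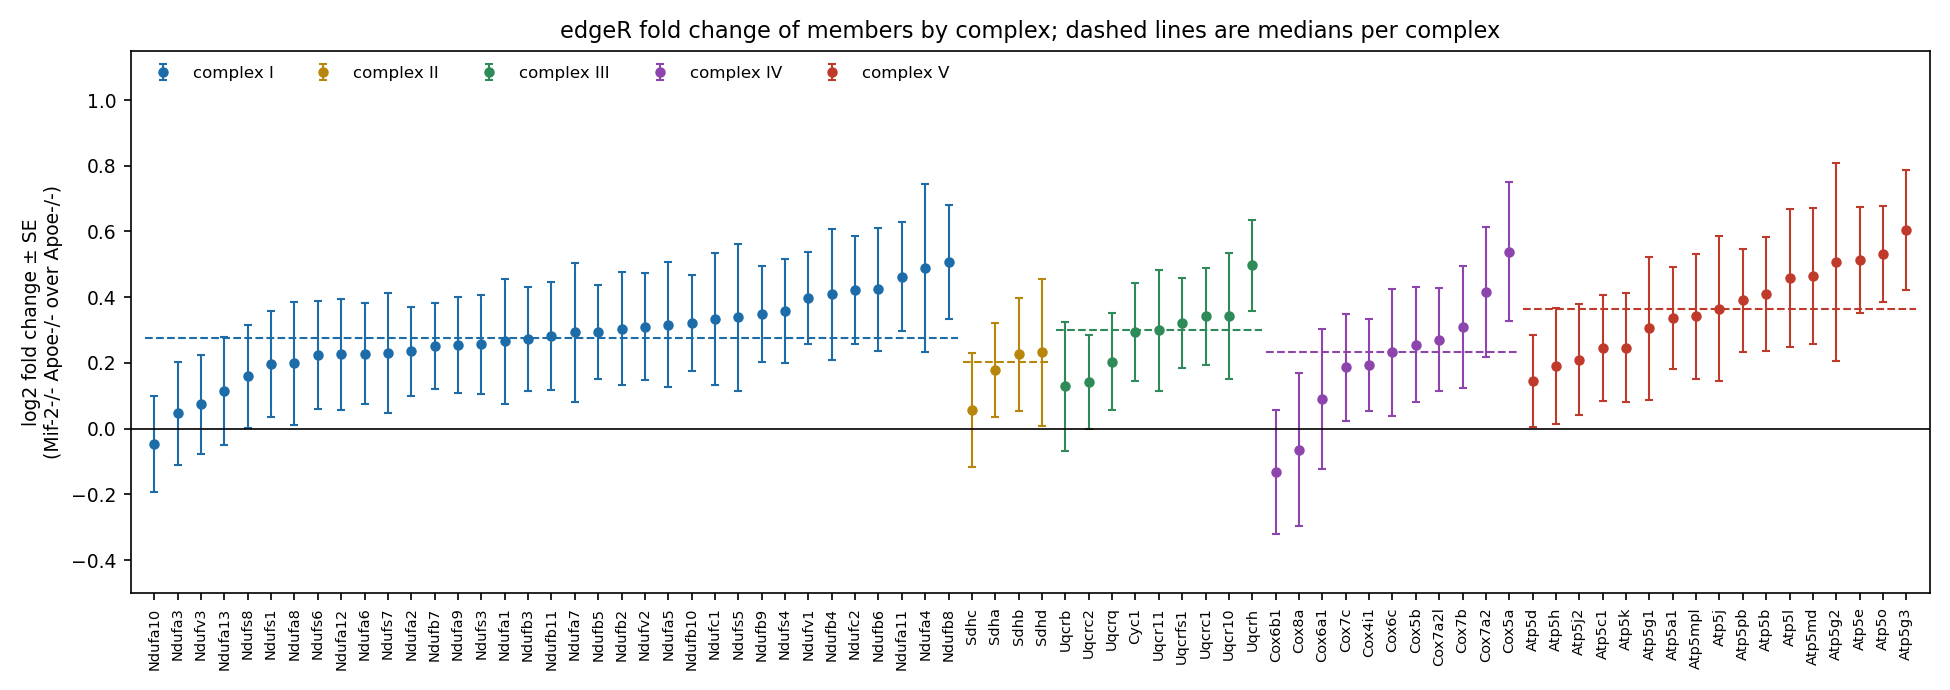
Each point is the log2 fold change of 1 member (Mif-2-/- Apoe-/- over Apoe-/-, 7 mice each) with its standard error, ordered within complexes I to V, and dashed lines are medians over all members tested in a complex. The points reach 0.60 for Atp5g3, and 3 lie below 0 (Ndufa10, Cox8a and Cox6b1).

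The plot of member fold changes shows a median above 0 for every complex. The median log2 fold change was 0.28 in complex I (35 of 36 members above 0), 0.20 in complex II (4 of 4), 0.30 in complex III (9 of 9), 0.23 in complex IV (9 of 11) and 0.37 in complex V (17 of 17). Without mouse 3 of the Mif-2-/- Apoe-/- group the median over all members was 0.22 with 72 of 77 above 0 and 0 called. Without mouse 2 of that group it was 0.37 with 75 of 77 above 0, and 5 members were called (Cox5a, Atp5g3, Atp5o, Uqcrh and Ndufb6, each higher), where 0.744% of 9950 genes tested were called higher. Mouse 2 had the highest ribosomal RNA share of all mice. Mice 7 and 3 of the Apoe-/- group, which had the next highest, stayed in that fit. A Wald test in DESeq2 on the counts of all 14 mice called 2 members higher (Atp5o and Uqcrh), where 0.444% of genes tested were called higher.

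Complex V, the ATP synthase, held 3 of the 4 members with the smallest p values. Atp5o encodes OSCP, the subunit that ties the catalytic head to the peripheral stalk, and lies at chr16:91925223-91931630 (RefSeq GRCm38.p6). It had 175, 262 and 289 CPM as the lowest, median and highest value in Mif-2-/- Apoe-/- mice, against 152, 165 and 187 CPM in Apoe-/- mice. All 7 Mif-2-/- Apoe-/- mice were above the Apoe-/- mean and 5 were above every Apoe-/- mouse, while mice 5 and 2 lay within the Apoe-/- range. The log2 fold change was 0.53 ± 0.15 (SE; 95% interval 0.23 to 0.83; edgeR adjusted p = 0.143), and DESeq2 gave an adjusted p of 0.0206. GENCODE M21 lists 2 overlapping genes with this symbol, so its row may hold reads of both.

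The c subunits form the rotor ring of the ATP synthase, and 3 nuclear genes (Atp5g1, Atp5g2 and Atp5g3) encode the same mature protein with different import signals. Atp5g3 had 144, 290 and 399 CPM (lowest, median and highest) in Mif-2-/- Apoe-/- mice, against 137, 185 and 215 CPM in Apoe-/- mice. Its log2 fold change of 0.60 ± 0.18 (SE, edgeR adjusted p = 0.176) was the highest of the 77, and 5 of 7 Mif-2-/- Apoe-/- mice were above every Apoe-/- mouse. Atp5g1 had 132, 158 and 373 CPM in Mif-2-/- Apoe-/- mice, against 142, 162 and 214 CPM in Apoe-/- mice. Mice 3 and 4 of the Mif-2-/- Apoe-/- group were above every Apoe-/- mouse and the other 5 were not, and the log2 fold change of 0.31 ± 0.22 (SE, edgeR adjusted p = 0.549) became 0.11 without mouse 3. Atp5g2 was scarce in both groups, at 7.93 ± 4.01 CPM in Mif-2-/- Apoe-/- mice and 5.71 ± 1.99 CPM in Apoe-/- mice (SD, n = 7 each; edgeR adjusted p = 0.467).

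In the catalytic head of the ATP synthase (F1), Atp5e encodes the small epsilon subunit of the central stalk. It had 379, 589 and 724 CPM in Mif-2-/- Apoe-/- mice, against 322, 388 and 461 CPM in Apoe-/- mice (lowest, median and highest). In 5 of 7 Mif-2-/- Apoe-/- mice it was above every Apoe-/- mouse, and mouse 2 was the lowest of its group (log2 fold change 0.51 ± 0.16 SE, edgeR adjusted p = 0.187). Atp5d, which encodes the delta subunit beside it and was among the most abundant members of complex V, had a log2 fold change of 0.15 ± 0.14 (edgeR adjusted p = 0.658). The range within 1 stalk thus ran from 0.15 to 0.51, which the standard errors do not separate firmly and for which no test was run. Atp5pb, the b subunit of the peripheral stalk, had 163 ± 38.8 CPM in Mif-2-/- Apoe-/- mice and 125 ± 17.4 CPM in Apoe-/- mice (SD, n = 7 each; log2 fold change 0.39, edgeR adjusted p = 0.288). All 17 members of complex V had fold changes above 0, and 8 of them an unadjusted p under 0.05.

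Complex III held Uqcrh, the hinge protein that helps cytochrome c dock, at chr4:116066965-116075070. It had 148, 211 and 248 CPM in Mif-2-/- Apoe-/- mice, against 121, 154 and 167 CPM in Apoe-/- mice (lowest, median and highest). Mouse 2 alone of the Mif-2-/- Apoe-/- group lay within the Apoe-/- range, and the other 6 lay above it. The log2 fold change was 0.50 ± 0.14 (SE; 95% interval 0.21 to 0.78; edgeR adjusted p = 0.143), and DESeq2 gave an adjusted p of 0.0129.

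Members of complex III that carry electrons, form its core or were most abundant had fold changes below that of Uqcrh, and none was called. Uqcrfs1, the Rieske iron-sulphur protein, had 212 ± 36.3 CPM in Mif-2-/- Apoe-/- mice and 170 ± 15.7 CPM in Apoe-/- mice (SD, n = 7 each; log2 fold change 0.32, edgeR adjusted p = 0.320). Cyc1, which encodes cytochrome c1, had 150 ± 27.8 CPM in Mif-2-/- Apoe-/- mice and 122 ± 19.3 CPM in Apoe-/- mice (log2 fold change 0.29, edgeR adjusted p = 0.401). Uqcrc1, a core protein without redox centre, had a log2 fold change of 0.34 (edgeR adjusted p = 0.322) and 0.24 without mouse 3. Uqcrq, a small subunit, was the most abundant of all 77 members at 867 ± 123 CPM in Mif-2-/- Apoe-/- mice and 752 ± 85.6 CPM in Apoe-/- mice (log2 fold change 0.20, edgeR adjusted p = 0.550). Uqcr11, next in abundance within the complex, had 413 ± 104 CPM in Mif-2-/- Apoe-/- mice and 336 ± 67.6 CPM in Apoe-/- mice (edgeR adjusted p = 0.487). CPM here are levels of 3' tags and are not divided by transcript length.

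In complex I, where a peripheral arm takes electrons from NADH and a membrane arm pumps protons, 35 of 36 members had fold changes above 0 and none was called. Ndufv1, which binds NADH, had 53.6, 73.2 and 90.9 CPM in Mif-2-/- Apoe-/- mice, against 47.3, 51.2 and 66.9 CPM in Apoe-/- mice (lowest, median and highest). In 4 of 7 Mif-2-/- Apoe-/- mice it was above every Apoe-/- mouse (log2 fold change 0.40 ± 0.14 SE, edgeR adjusted p = 0.240). Ndufb8, an accessory subunit of the membrane arm, had the smallest p of the complex, with 92.4, 129 and 203 CPM in Mif-2-/- Apoe-/- mice against 63.8, 101 and 121 CPM in Apoe-/- mice (log2 fold change 0.51 ± 0.17 SE, edgeR adjusted p = 0.224).

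Further named members of complex I also had overlapping groups and none was called. Ndufa11, a membrane-arm subunit, had 94.5 ± 22.4 CPM in Mif-2-/- Apoe-/- mice and 68.7 ± 13.2 CPM in Apoe-/- mice (SD, n = 7 each; edgeR adjusted p = 0.243). Ndufc2, another membrane-arm subunit, had 45.1 ± 10.7 CPM in Mif-2-/- Apoe-/- mice and 33.7 ± 6.80 CPM in Apoe-/- mice (edgeR adjusted p = 0.274). The most abundant ones, Ndufa6 and Ndufa13, had log2 fold changes of 0.23 and 0.11 (edgeR adjusted p = 0.525 and 0.793). Ndufa10, named after its value was seen, was the single member of the complex below 0, with 147 ± 26.5 CPM in Mif-2-/- Apoe-/- mice and 151 ± 21.0 CPM in Apoe-/- mice (log2 fold change -0.05, edgeR adjusted p = 0.917). Ndufa4, also named afterwards, spread widely in Mif-2-/- Apoe-/- mice at 81.9, 295 and 381 CPM, against 86.4, 189 and 248 CPM in Apoe-/- mice (lowest, median and highest; edgeR adjusted p = 0.411).

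Complex II, which also works in the citric acid cycle, showed the smallest median. Sdha, the flavoprotein, had 108 ± 18.8 CPM in Mif-2-/- Apoe-/- mice and 95.7 ± 14.0 CPM in Apoe-/- mice (SD, n = 7 each; log2 fold change 0.18, edgeR adjusted p = 0.591). Sdhb, the iron-sulphur subunit, had 135 ± 40.4 CPM in Mif-2-/- Apoe-/- mice and 116 ± 18.5 CPM in Apoe-/- mice, and its log2 fold change of 0.23 (edgeR adjusted p = 0.575) became 0.09 without mouse 3. Of the membrane anchors, Sdhc had a log2 fold change of 0.06 (95% interval -0.30 to 0.42, edgeR adjusted p = 0.914) and -0.01 without mouse 3, and Sdhd one of 0.23 (95% interval -0.23 to 0.70, edgeR adjusted p = 0.660). The intervals of the anchors leave room for a change in either direction.

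In complex IV the nuclear subunits surround a core made in the mitochondrion, and several exist as a general or liver form and a form of muscle or other tissues. Cox5a, which has 1 form only, had 44.1, 131 and 179 CPM in Mif-2-/- Apoe-/- mice, against 62.4, 81.7 and 103 CPM in Apoe-/- mice (lowest, median and highest). The lowest and the highest of all 14 mice were both Mif-2-/- Apoe-/- mice, mouse 2 and mouse 3. Cox5a differed by a log2 fold change of 0.54 ± 0.21 (SE, edgeR adjusted p = 0.279), of 0.41 without mouse 3, and of 0.68 without mouse 2 (edgeR adjusted p = 0.0457).

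The general forms of the isoform pairs were the bulk of complex IV. Cox4i1 had 554 ± 77.5 CPM in Mif-2-/- Apoe-/- mice and 485 ± 47.7 CPM in Apoe-/- mice (SD, n = 7 each; log2 fold change 0.19, edgeR adjusted p = 0.551). Cox7a2 had 168 ± 51.3 CPM in Mif-2-/- Apoe-/- mice and 126 ± 23.3 CPM in Apoe-/- mice (log2 fold change 0.42, edgeR adjusted p = 0.381), and Cox7b 185 ± 48.9 and 150 ± 32.3 CPM in the same order (log2 fold change 0.31, edgeR adjusted p = 0.470). Cox6a1, Cox6b1 and Cox8a had lower log2 fold changes of 0.09, -0.13 and -0.06 (edgeR adjusted p = 0.889, 0.791 and 0.929). None of these general forms was called by edgeR, and no test compared them with each other. Cox6b1 had 146, 240 and 274 CPM in Mif-2-/- Apoe-/- mice, against 164, 223 and 382 CPM in Apoe-/- mice, and its 95% interval of -0.52 to 0.26 holds values on both sides of 0. Cox8a had 102, 211 and 392 CPM in Mif-2-/- Apoe-/- mice, against 118, 218 and 333 CPM in Apoe-/- mice, and 1 of 7 Mif-2-/- Apoe-/- mice was above the Apoe-/- mean. Cox7a2l, the supercomplex factor, had 68.4 ± 11.5 CPM in Mif-2-/- Apoe-/- mice and 56.9 ± 13.5 CPM in Apoe-/- mice (edgeR adjusted p = 0.452). Cox6c, among the most abundant subunits, had 416 ± 120 CPM in Mif-2-/- Apoe-/- mice and 355 ± 53.8 CPM in Apoe-/- mice (edgeR adjusted p = 0.608).

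The muscle forms of complex IV were abundant in a single mouse only. Cox6a2 had 844 counts in mouse 3 of the Mif-2-/- Apoe-/- group, against 0 to 6 in the other 6 mice of that group and 1 to 7 in Apoe-/- mice. Cox8b had 581 counts in that mouse, against 0 to 4 in the other 6 and 1 to 3 in Apoe-/- mice. Cox7a1, the heart and muscle partner of Cox7a2, had 338 counts in that mouse, against 3 to 16 in the other 6 and 2 to 17 in Apoe-/- mice.

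**Figure D2:**
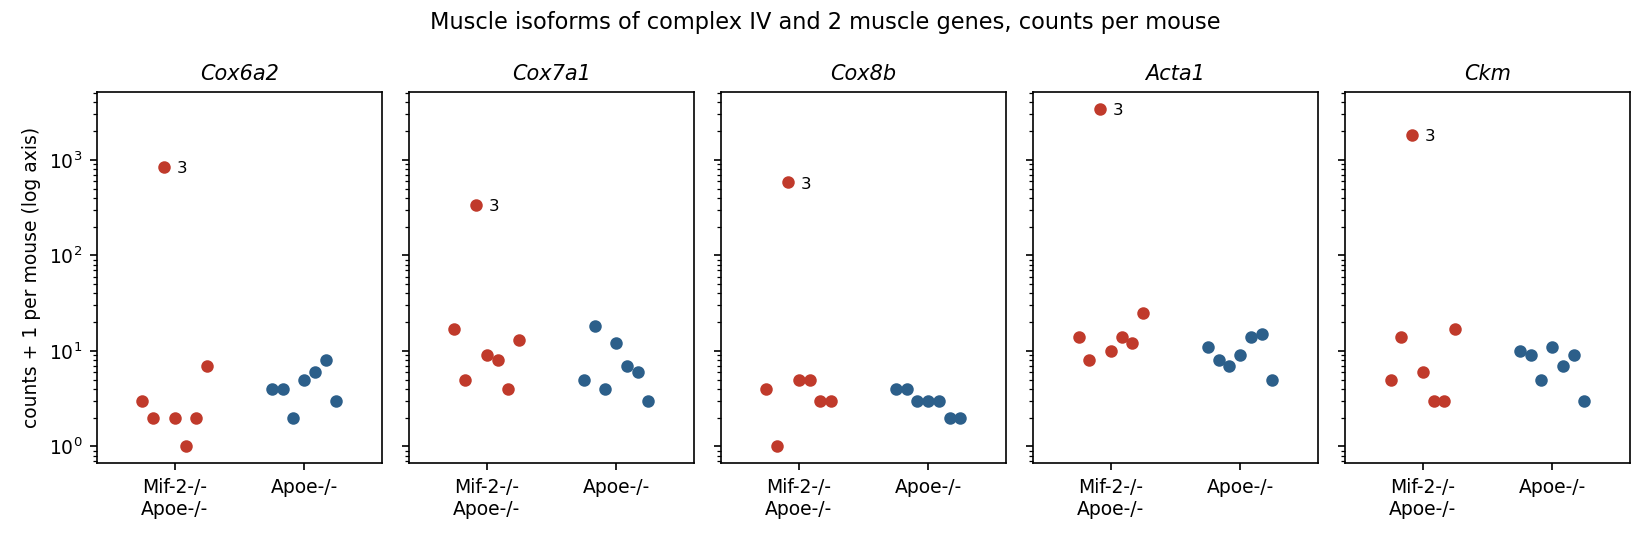
Counts plus 1 per mouse on a log axis for the 3 muscle forms of complex IV subunits and for 2 skeletal muscle genes, Mif-2-/- Apoe-/- mice at the left and Apoe-/- mice at the right of each panel. Mouse 3 of the Mif-2-/- Apoe-/- group stands far above the other 13 mice in every panel, at 844 counts for Cox6a2 and 3416 for Acta1.

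The plot of muscle isoforms shows the same mouse high for Acta1 (skeletal actin) at 3416 counts, against 7 to 24 in the other 6 Mif-2-/- Apoe-/- mice and 4 to 14 in Apoe-/- mice. Ckm (muscle creatine kinase) had 1820 counts in it, against 2 to 16 in the other 6 and 2 to 10 in Apoe-/- mice. These 3 members did not pass the filter on low counts and had no test in the main comparison. Without that filter they were the 3 members called, and each of those calls rests on this mouse. The remaining tissue forms had hardly any counts: Cox4i2 (lung) 0 to 6 per mouse in each group, Cox6b2 (testis) 0 to 3 in Mif-2-/- Apoe-/- and 0 to 2 in Apoe-/- mice, Cox7b2 0 to 8 and 2 to 6, and Cox8c (testis) 0 and 0 to 1. At such counts no difference was detectable.

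Summed by complex, the members were 1.12 to 1.28 times as high in Mif-2-/- Apoe-/- as in Apoe-/- mice, with overlapping groups. Complex V had the highest ratio, with 2555, 4231 and 5086 CPM (lowest, median and highest) in Mif-2-/- Apoe-/- mice against 2471, 3281 and 3610 CPM in Apoe-/- mice, a ratio of means of 1.28 and of 1.22 without mouse 3. Complex III had 1577, 2504 and 2753 CPM in Mif-2-/- Apoe-/- mice against 1636, 2035 and 2365 CPM in Apoe-/- mice, a ratio of 1.20. In both complexes 5 of 7 Mif-2-/- Apoe-/- mice were above every Apoe-/- mouse, and mouse 2 lay low among the Apoe-/- values or under them.

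**Figure D3:**
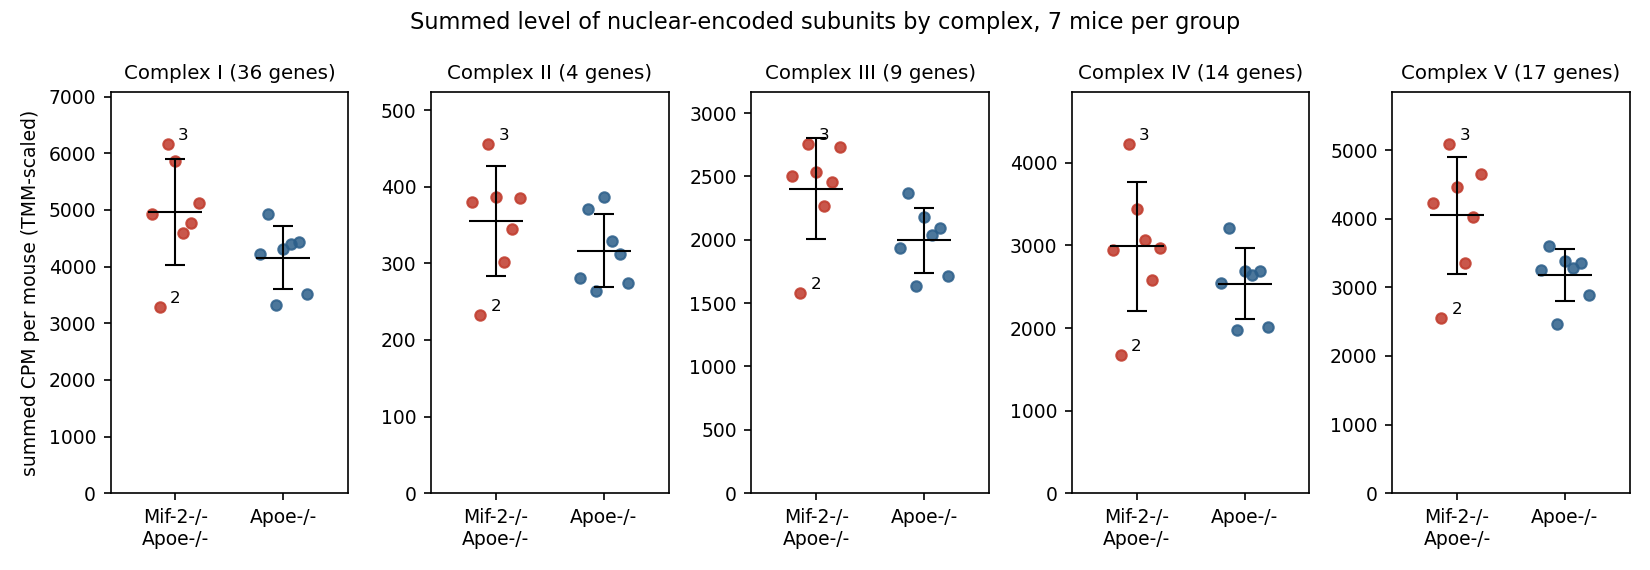
Summed CPM per mouse of the members with at least 10 counts on average, by complex, with Mif-2-/- Apoe-/- mice at the left and Apoe-/- mice at the right of each panel. Points are mice, bars are means ± SD over 7 mice, and mice 2 and 3 of the Mif-2-/- Apoe-/- group, the lowest and the highest of it in each panel, are marked.

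Complex I had 3281, 4927 and 6159 CPM in Mif-2-/- Apoe-/- mice against 3320, 4305 and 4929 CPM in Apoe-/- mice, a ratio of 1.19. Complex II had 232, 380 and 455 CPM in Mif-2-/- Apoe-/- mice against 264, 313 and 386 CPM in Apoe-/- mice, a ratio of 1.12 and of 1.07 without mouse 3. The plot of sums by complex shows that the range within the Mif-2-/- Apoe-/- group was wider than the gap between group means. Complex IV had 1670, 2973 and 4225 CPM in Mif-2-/- Apoe-/- mice against 1972, 2638 and 3216 CPM in Apoe-/- mice, a ratio of 1.18, which became 1.13 when the 3 muscle forms were left out and 1.10 when mouse 3 was. Over all 80 members the sum was 14761 ± 2937 CPM in Mif-2-/- Apoe-/- mice and 12184 ± 1642 CPM in Apoe-/- mice (SD, n = 7 each). The ratio of 1.21 was 1.16 without mouse 3, 1.29 without mouse 2 and 1.14 when scaled by library totals alone. Per count outside mt- and ribosomal RNA genes and with no TMM scaling, the ratio was 1.10, and it was 1.03 without mouse 3. No test was run on sums over the members.

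The members went up and down together from mouse to mouse. Each tested member was correlated with the sum of the others over the 14 mice, and the median r was 0.83 (0.80 without mouse 3), with 63.6% of members above 0.8. For 9607 other genes tested the median r with the same sum was -0.01, and 1.55% were above 0.8. These correlations are a description over 14 mice that share library scaling. Ndufa10 had the lowest r (0.12), followed by Cox7a2l (0.40), and Atp5md the highest (0.97). Mouse 2 was the lowest Mif-2-/- Apoe-/- mouse for 66 of the 77 members and mouse 3 the highest for 41. For 73 of the 77 the lowest of all 14 mice was 1 of the 3 mice with the highest ribosomal RNA share.

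The share of counts on the members was lower in mice with a higher share of ribosomal RNA. Ribosomal RNA, nuclear and mitochondrial, took 32.4 ± 10.1% of counts in Mif-2-/- Apoe-/- mice and 33.7 ± 8.20% in Apoe-/- mice (SD, n = 7 each; two-sided exact permutation p = 0.797 over 3432 assignments). Across the 14 mice the members' share had a Pearson r of -0.83 and a Spearman rho of -0.68 with that share, with r of -0.80 within the 7 Mif-2-/- Apoe-/- mice and -0.94 within the 7 Apoe-/- mice. Both shares are parts of the same total, so some negative relation follows from the arithmetic. Nearly all nuclear ribosomal RNA counts fell on 1 symbol, CT010467.1. It held 36.80% of counts in mouse 7 of the Apoe-/- group, where all nuclear ribosomal RNA held 36.81%. Per count outside mt- and ribosomal RNA genes, r was -0.54 over 14 mice and -0.80 without mouse 3 of the Mif-2-/- Apoe-/- group. It was -0.18 over the 12 mice left without mouse 2 of the Mif-2-/- Apoe-/- group and mouse 7 of the Apoe-/- group. With mouse 3 left out as well, r was -0.57 over 11 mice. On this scale the size of r thus depended on which mice were kept. Within groups it was -0.46 in Mif-2-/- Apoe-/- mice, where it did not hold without mice 2 and 4, and -0.80 in Apoe-/- mice. Without the 2 mice farthest from the median share, r for the members' share was -0.62 over the other 12 mice, and within the Mif-2-/- Apoe-/- group the relation did not hold without mice 2 and 4.

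**Figure D4:**
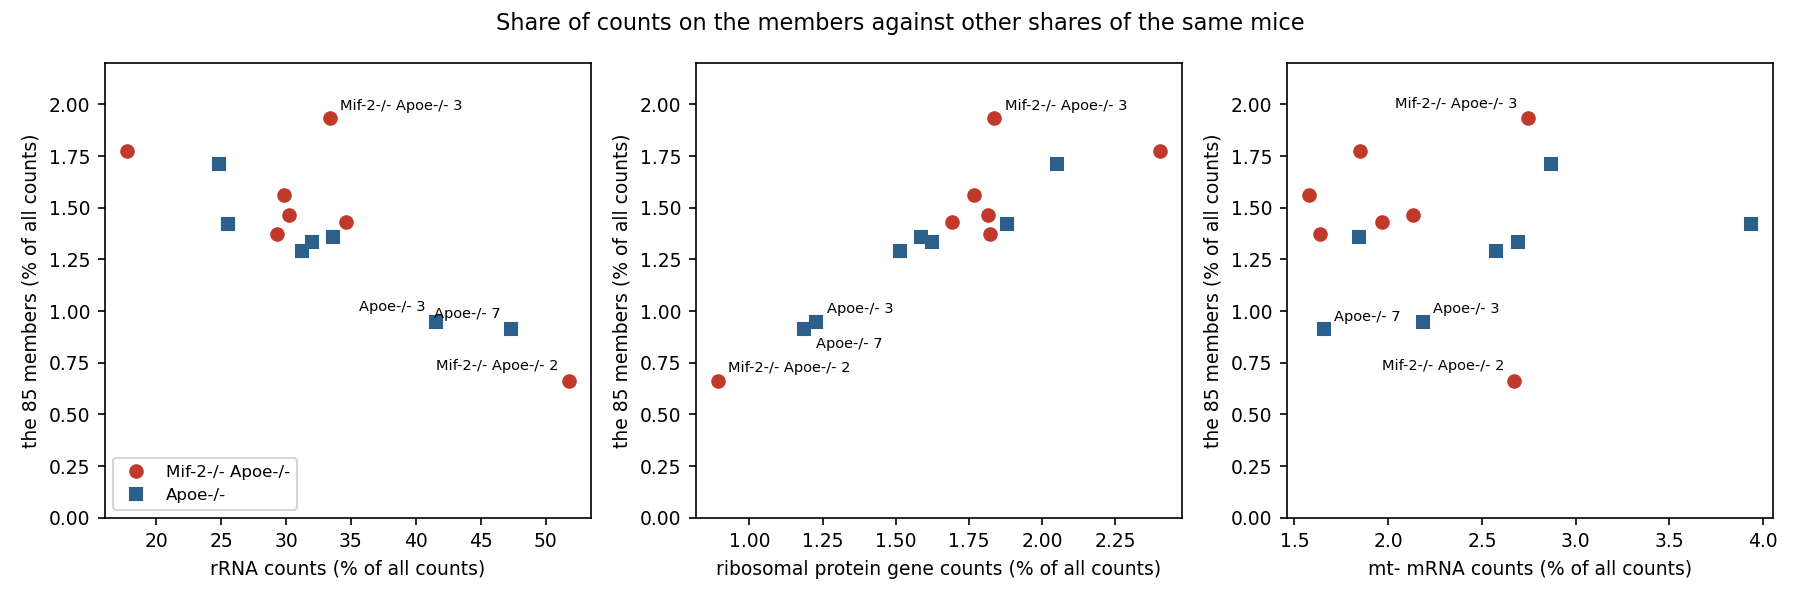
Share of all counts on the 85 members (vertical axis, %) against the share of ribosomal RNA, of ribosomal protein genes and of mt- mRNA (horizontal axes, %), 1 point per mouse, circles for Mif-2-/- Apoe-/- and squares for Apoe-/- mice. The members' share falls with ribosomal RNA (r = -0.83), rises with ribosomal protein genes (r = 0.90) and shows little relation to mt- mRNA (r = 0.08).

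Ribosomal protein transcripts, short and abundant like those of the members, tracked them closely. The plot of shares shows an r of 0.90 (rho 0.89) over the 14 mice, 0.86 within Mif-2-/- Apoe-/- and 0.97 within Apoe-/- mice. Without the 2 mice farthest from the median share, mice 2 and 4 of the Mif-2-/- Apoe-/- group, r was 0.87 over the other 12. It was 0.40 over the 5 Mif-2-/- Apoe-/- mice left. For members per count outside mt- and ribosomal RNA genes, r was 0.80 over the 14 mice. Within Mif-2-/- Apoe-/- mice it was 0.76 on that scale, and 0.87 over the 5 left without mice 2 and 4. What these 2 mice contribute within the group thus depended on the scale. Of 97 ribosomal protein genes tested, 0 were called, 91 had fold changes above 0 and the median log2 fold change was 0.23, beside 0.28 for the members and 0.01 for all genes. Member counts per ribosomal protein count were 0.739, 0.806 and 1.05 (lowest, median and highest) in Mif-2-/- Apoe-/- mice, against 0.757, 0.821 and 0.854 in Apoe-/- mice. The means were 0.832 ± 0.112 in Mif-2-/- Apoe-/- mice and 0.809 ± 0.0408 in Apoe-/- mice (SD, n = 7 each), and the ratio of means was 1.03, or 0.983 without mouse 3. Relative to ribosomal protein transcripts the members thus lay at like levels in both groups, and the highest value was that of mouse 3. The part of ribosomal RNA share or RNA quality in the members' difference was not tested beyond the covariate below. With the ribosomal RNA share as a covariate in the edgeR fit the members' median log2 fold change was 0.25, with 74 of 77 above 0 and 0 called.

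The mitochondrially encoded subunits did not follow the nuclear ones. Of the 13 mt- mRNAs, which encode the remaining subunits of complexes I, III, IV and V, 12 could be tested, 0 were called, 3 had fold changes above 0 and the median log2 fold change was -0.17. The 3 with the smallest p were mt-Nd6 (log2 fold change -0.39 ± 0.22 SE, edgeR adjusted p = 0.440), mt-Nd5 (-0.30, edgeR adjusted p = 0.554), both subunits of complex I, and mt-Cytb of complex III (-0.29, edgeR adjusted p = 0.609). The mt- mRNAs held 2.08 ± 0.467% of counts in Mif-2-/- Apoe-/- mice and 2.54 ± 0.761% in Apoe-/- mice (SD, n = 7 each; two-sided exact permutation p = 0.204). Adding 3 pseudogenes of mitochondrial genes on chromosome 1 that draw many such reads (Gm28437, Gm10925 and Gm28661) gave 4.38 ± 0.808% and 5.06 ± 1.37% in the same order of groups (exact permutation p = 0.318). Mitochondrial ribosomal RNA was 12.1 ± 4.00% in Mif-2-/- Apoe-/- mice and 11.8 ± 2.17% in Apoe-/- mice (exact permutation p = 0.847).

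**Figure D5:**
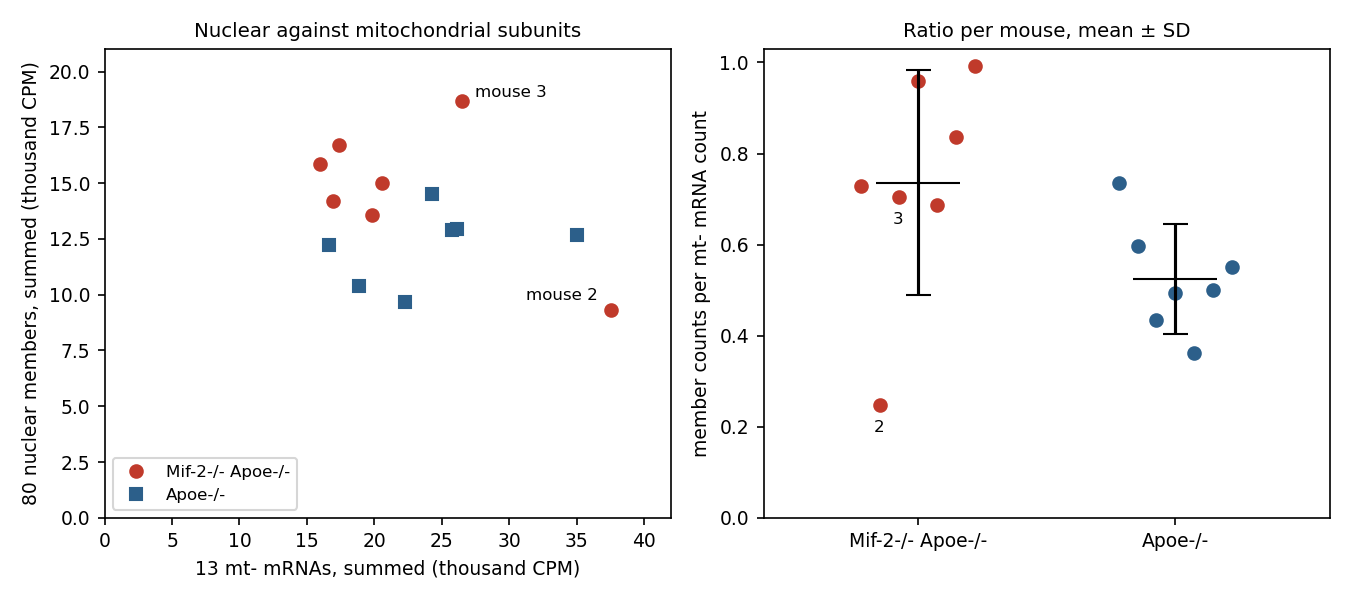
Left, the 80 nuclear members against the 13 mt- mRNAs, both as summed CPM, 1 point per mouse, circles for Mif-2-/- Apoe-/- and squares for Apoe-/- mice. Right, member counts per mt- mRNA count with mean ± SD over 7 mice, 0.736 ± 0.247 in Mif-2-/- Apoe-/- and 0.525 ± 0.120 in Apoe-/- mice, where mouse 2 of the Mif-2-/- Apoe-/- group is the lowest of all 14.

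The balance between the 2 genomes was therefore read per mouse as member counts per mt- mRNA count. This ratio was 0.248, 0.728 and 0.992 (lowest, median and highest) in Mif-2-/- Apoe-/- mice, against 0.362, 0.500 and 0.736 in Apoe-/- mice, a ratio of means of 1.40, or of 1.32 with the 3 pseudogenes included. As the plot of nuclear against mitochondrial subunits shows, 6 of 7 Mif-2-/- Apoe-/- mice were above the Apoe-/- mean, 3 were above every Apoe-/- mouse, and mouse 2 was the lowest of all 14. The groups overlapped, and no test was run on this ratio. Across the 14 mice the members' share and the mt- mRNA share had an r of 0.08 (rho 0.08), with -0.21 within Mif-2-/- Apoe-/- and 0.59 within Apoe-/- mice, so that no common relation was seen.

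Among genes that act around the chain, 0 were called. Of 43 assembly factors tested, 27 had fold changes above 0 with a median log2 fold change of 0.07. The 3 with the smallest p were Ndufaf3 (complex I assembly, 0.58 ± 0.23 SE, edgeR adjusted p = 0.281), Cox15 (haem A synthesis for complex IV, 0.62, edgeR adjusted p = 0.308) and Ttc19 (complex III assembly, -0.60, edgeR adjusted p = 0.330). Of 13 citric acid cycle genes, 11 were above 0 with a median of 0.35, which was 0.09 without mouse 3. They were led by Suclg1 (0.50, edgeR adjusted p = 0.310), Dld (0.39, edgeR adjusted p = 0.320) and Idh3b (0.37, edgeR adjusted p = 0.320), all enzymes of the cycle.

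Of 18 genes for mobile carriers, ubiquinone synthesis, the ATP synthase inhibitor and exchangers, 13 were above 0 with a median log2 fold change of 0.12. Slc25a4, the ADP/ATP carrier of heart and muscle, had 100 ± 235 CPM in Mif-2-/- Apoe-/- mice and 10.4 ± 3.57 CPM in Apoe-/- mice (SD, n = 7 each), and its log2 fold change of 3.26 (edgeR adjusted p = 0.143) became 0.12 without mouse 3. Ndufab1, the acyl carrier protein bound to complex I, had a log2 fold change of 0.42 (edgeR adjusted p = 0.249), and Coq10a, a ubiquinone-binding protein, one of 0.79 (edgeR adjusted p = 0.254) that was 0.46 without mouse 3. Regulators of mitochondrial biogenesis lay on both sides of 0. Of 12 tested, 6 were above 0 with a median of -0.00, led by Gabpb1 (GABP beta chain, -0.66, edgeR adjusted p = 0.282), Yy1 (0.28, edgeR adjusted p = 0.422) and Nrf1 (-0.32, edgeR adjusted p = 0.492).

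Among markers of other cells the liver piece could hold, 1 gene was called. It was 1 of 8 Kupffer and macrophage markers tested, where 0.217% of the 9684 genes tested were called. Timd4, a marker of resident Kupffer cells, was higher in Mif-2-/- Apoe-/- mice at 14.6 ± 4.47 CPM, against 6.04 ± 3.00 CPM in Apoe-/- mice (SD, n = 7 each; log2 fold change 1.30, edgeR adjusted p = 0.0374). The median log2 fold change was 0.19 for 7 hepatocyte markers, 0.25 for 8 Kupffer and macrophage markers, 0.13 for 6 endothelial, 0.07 for 5 stellate, -0.27 for 5 erythroid and -0.42 for 2 cholangiocyte markers. T and B cell markers summed to at most 6.30 CPM in Mif-2-/- Apoe-/- mice and 9.46 CPM in Apoe-/- mice. Adipocyte markers summed to 9.14 to 138 CPM in Mif-2-/- Apoe-/- mice, the highest being mouse 3, against 10.9 to 30.9 CPM in Apoe-/- mice. Of 8 nuclear-retained and immediate early RNAs, which shift with tissue handling and RNA quality, 7 were above 0 with a median of 0.78 and 0 were called. Summed over the 11 such RNAs in the list, the mean went the other way. It was 2835 CPM in Mif-2-/- Apoe-/- mice and 3498 CPM in Apoe-/- mice. Whether these shifts bear on the members was not tested.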

How the data were processed

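The mice, libraries and groups were taken from the labels. Libraries had been made with prime-seq, which reads a tag near the 3' end of transcripts with a unique molecular identifier, and the authors counted them with zUMIs. The deposited values are raw counts per gene symbol, and the labels name mm10. Annotation release, use of strand and intronic reads are not given in the sources used here, so genes sharing sequence may share reads. The study's model held RNA integrity, whose values the labels lack, and it was left out of the fits.

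The 2 libraries of each mouse were summed. Counts were filtered with filterByExpr, scaled by TMM and tested with the edgeR quasi-likelihood F test (two-sided, Benjamini-Hochberg over 9684 genes), with no covariate. Fold changes are Mif-2-/- Apoe-/- over Apoe-/-, with standard errors worked back from the fold change and its F statistic, and CPM use TMM-scaled totals. The members and lists were chosen with earlier results of these data known. Named genes were, in each complex, the 4 members with the smallest p and the 2 highest, the tissue isoforms with their counterparts, the c-subunit genes, and 3 genes of each pathway list. For shares, an exact permutation test over 3432 assignments was used (two-sided, smallest possible p = 0.000583). Totals per mouse of 1336787 to 2715022 counts set the precision. Positions are RefSeq GRCm38.p6, and types come from GENCODE M21, which matched 83 of 85 members. The edgeR script was tested on simulated data. The values of 1 member are not reported here, although it is included in counts, sums and medians. Alternatives were DESeq2, other scalings, filters and covariates, single libraries, a replicate block and leaving out mice. Versions were R 4.3.3, edgeR 4.0.16, DESeq2 1.42.0, Python 3.11.15 and scipy 1.17.1.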

Additional observations from a re-analysis of the deposited data

Results flagged for a closer look

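In each group of 7 mice the highest and lowest mouse were set against the others by Dixon's ratio, for the sums, the shares and the named members. Of 92 groups checked, 8 single values lay far from the rest. About 1 in 20 would be flagged among independent groups of normally distributed values. The groups checked share the same mice and many rise and fall together, so their count cannot be set against that rate. Mouse 2 of the Mif-2-/- Apoe-/- group lay low for the complex III sum (1577 CPM, against 2267 to 2753 in the other 6), for member counts per mt- mRNA count (0.248, against 0.686 to 0.992), for Ndufa6 (204 CPM, against 328 to 375) and for Cox6c (168 CPM, against 384 to 522). It also had the highest ribosomal RNA share, 51.8% of counts. Mouse 3 of that group lay high for Cox6a2 (417 CPM, against 0 to 3.17), Cox7a1 (167 CPM, against 2.24 to 9.59) and Cox8b (287 CPM, against 0 to 2.44), beside its muscle markers. Mouse 4 of that group lay high for Cox8a (392 CPM, against 102 to 220), and it had the lowest ribosomal RNA share, 17.7%.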

How the results depend on the processing

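The members' median log2 fold change stayed above 0 under every alternative run, from 0.19 with library totals alone, where the median of all genes was -0.09, to 0.37. Leaving out 1 mouse at a time gave medians of 0.22 to 0.37 and 0 to 5 members called, the 5 without mouse 2 of the Mif-2-/- Apoe-/- group. The fit without mouse 2 kept mice 7 and 3 of the Apoe-/- group, next highest in ribosomal RNA share. The count of 0 called members became 2 with DESeq2, 4 with DESeq2 and the study's gene filter, and 3 without a low-count filter. Across all genes, 21 of 9684 tested were called, DESeq2 called 68 of 9684 and the fit without mouse 2 118 of 9950. DESeq2 with the study's filter called 96 genes and the fit without a low-count filter 344. Both were run on other sets of genes, and their shares of genes called are not given here. In the pathway lists the count of 0 became 1 without the low-count filter and 1 without mouse 3 of the Mif-2-/- Apoe-/- group and the 3 mice with the highest ribosomal RNA share, an alternative chosen after seeing the data. The causes were not tested.

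The relation of the members' share to ribosomal RNA (r = -0.83) was -0.54 on counts without mt- and ribosomal RNA genes, -0.94 within Apoe-/- mice, -0.62 without the 2 farthest mice and -0.95 without mouse 3, the last added after seeing the data. Directions near 0 turned for Sdhc (-0.026) and the named member Cox6a1 (-0.0024) with library totals alone, for Cox8a (0.017) with the mt- mRNA share as covariate and for Ndufa13 (-0.014) without mouse 3 and the 3 mice high in ribosomal RNA. Leaving out 1 mouse at a time gave log2 fold changes of -0.0093 to 0.17 for Sdhc (lowest without mouse 3 of the Mif-2-/- Apoe-/- group), -0.056 to 0.21 for Cox6a1, -0.20 to 0.015 for Cox6b1 and -0.28 to 0.058 for Cox8a. The difference in mt- mRNA share ran from -0.60 to -0.22 percentage points when 1 mouse was left out.

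Equal mouse numbers do not pair the groups: 1 of 7 pairs correlated above 0.1 (range -0.39 to 0.12). With a replicate block the members' median was 0.26, 0 were called and 14 genes in all.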
